A study of Mus musculus with 18 samples.

Results

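The genes described here are 6 members of the mouse oligoadenylate synthetase (OAS) family, *Oas1a*, *Oas1g*, *Oas2*, *Oas3*, *Oasl1* and *Oasl2*, taken from the count table by gene name. They are 6 of the 12 *Oas* and *Oasl* genes among 56748 genes listed. mRNA was sequenced from RAW 264.7 cells, a mouse macrophage line, in 6 conditions of 3 libraries each. Control cells received no treatment, and cells of the TBHQ condition received 5 µM tert-butylhydroquinone (TBHQ, a synthetic food antioxidant) for 4 h. Other cells received 0.1 µg/mL lipopolysaccharide (LPS) or 20 µg/mL polyinosinic-polycytidylic acid (PIC, a synthetic double-stranded RNA) for 12 h. In LPS + TBHQ and PIC + TBHQ, the same TBHQ dose was given for 4 h and the stimulant for 12 h more. TBHQ alone therefore ended at the start of the stimulation, whereas the study's design places control cells, in medium, with the 12 h stimulations, so that treatment and time in culture cannot be told apart in the comparison of TBHQ alone with control. TBHQ was dissolved in DMSO, and the study's methods name a DMSO control only for the cytotoxicity assay. In comparisons with cells not given TBHQ, its effect and that of its solvent therefore cannot be told apart. Library totals ran from 14423390 to 18851626 counts. The libraries held macrophage RNA, with 8 of 9 macrophage markers at a mean FPKM of 1 or more. *Lyz2* was the most abundant of these at 4021 FPKM. None of the T cell, B cell, NK cell, dendritic cell, fibroblast or epithelial markers examined reached a mean of 1 FPKM.

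OAS enzymes bind double-stranded RNA and make short oligoadenylates, a second messenger of antiviral defence. Most OAS genes are induced by type I interferon, and macrophages are among the cells in which this system has been studied most.

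All 6 genes lie on chromosome 5, in positions given by the count table. *Oas2* (120868398 to 120887918), *Oas3* (120891163 to 120915726), *Oas1g* (121014205 to 121025676) and *Oas1a* (121034319 to 121045584) are on the minus strand of a cluster of 191318 bases that also holds *Oas1b*, *Oas1c*, *Oas1d*, *Oas1e*, *Oas1f* and *Oas1h*. *Oasl2* (115034997 to 115050295) and *Oasl1* (115061299 to 115075974) are neighbours on the plus strand within 40978 bases. The study names its genome build as GRCm38/mm39, which are different assemblies. Of 52073 gene IDs shared with a GRCm38 annotation, 50588 have another start in the table, so the positions are not those of GRCm38.

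**Figure D1:**
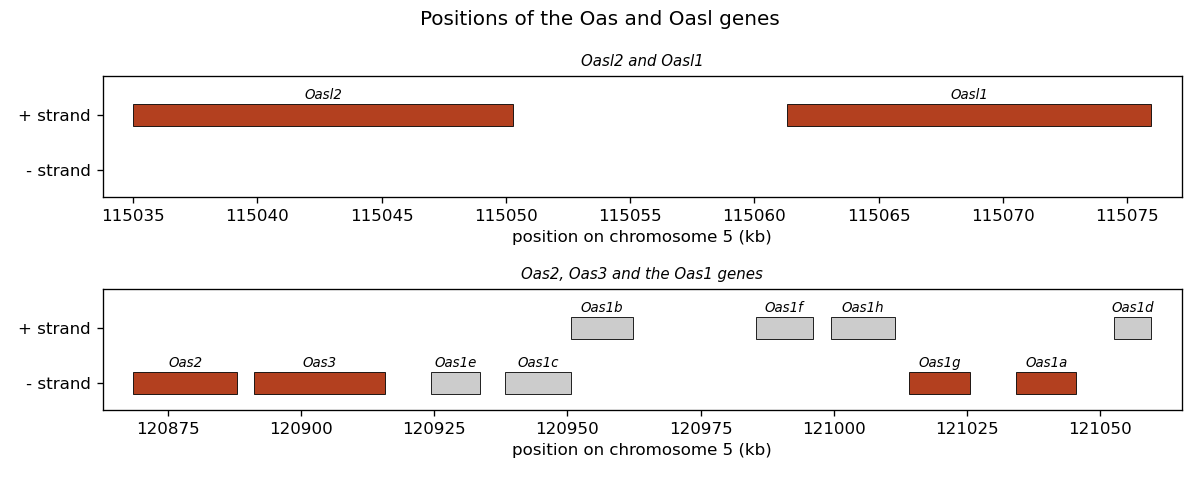
Positions of the *Oas* and *Oasl* genes on chromosome 5 in kilobases, with the plus strand above and the minus strand below in each panel. Red bars are the 6 genes described and grey bars the other 6. *Oasl2* and *Oasl1* lie side by side, and *Oas2*, *Oas3*, *Oas1g* and *Oas1a* share a cluster of 191318 bases.

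Levels per length are given in deposited FPKM (fragments scaled to transcript length, library size and a further constant per library that differed by condition). In control libraries the level was highest for *Oas1a* at 84.8 ± 1.96 (SD, n = 3). *Oasl1* followed at 63.7 ± 3.81, *Oas3* at 49.4 ± 0.650, *Oas1g* at 41.7 ± 2.94 and *Oas2* at 32.0 ± 2.55. *Oasl2* was lowest at 4.75 ± 0.492. The libraries of neighbouring genes in this order did not overlap in FPKM. The order of the genes changed with the stimulant. In LPS, *Oasl1* was the most abundant member at 181 ± 11.4 FPKM, above *Oas1a* at 138 ± 6.29. In PIC, *Oasl1* reached 779 ± 30.7 FPKM and *Oas1a* 157 ± 4.36. The FPKM of *Oasl1* as a share of the summed FPKM of the 6 genes was 23.0% ± 0.662 in control, 34.7% ± 0.873 in LPS and 67.9% ± 0.684 in PIC. With PIC + TBHQ it was 60.7% ± 0.459, and with LPS + TBHQ 29.2% ± 0.530. The *Oasl1* share was thus low in control libraries, intermediate in LPS and high in PIC, and the libraries of these conditions did not overlap.

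**Figure D2:**
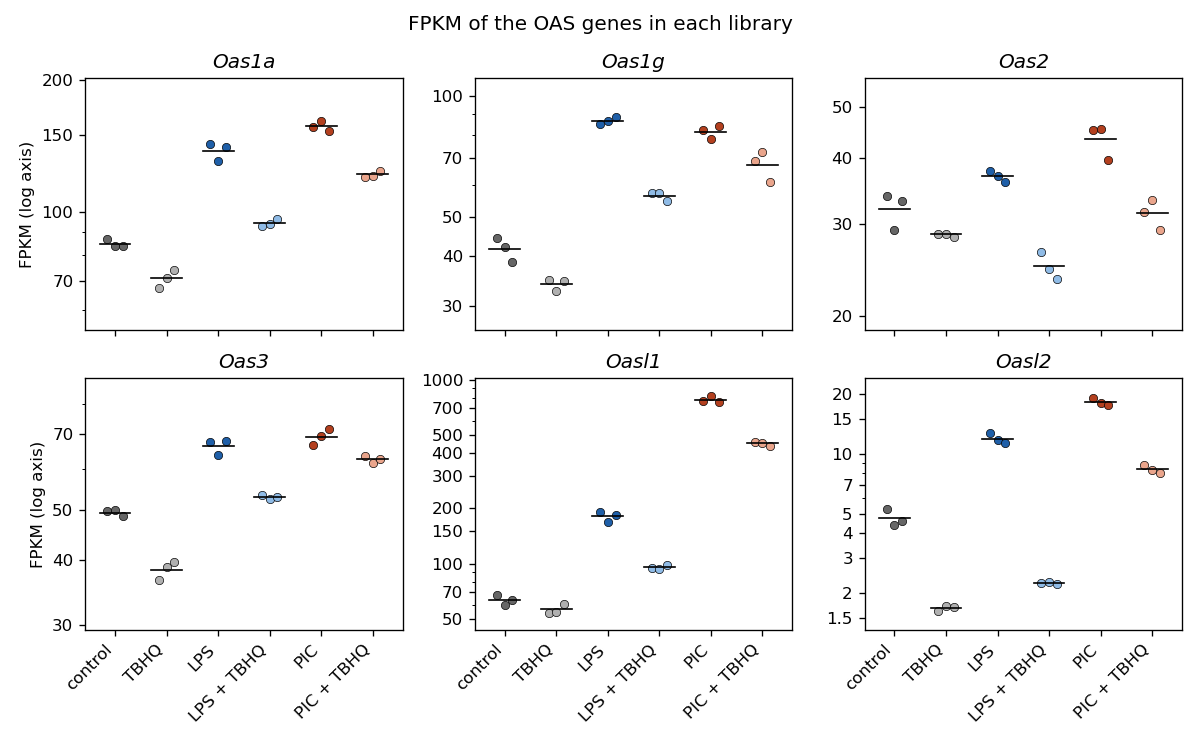
FPKM (log axis) of the 6 OAS genes in each of the 18 libraries. Points are libraries, coloured by condition, and bars are means of 3 libraries. *Oasl1* lies between 755 and 814 FPKM in PIC and between 59.9 and 67.5 FPKM in control, and *Oasl2* in LPS + TBHQ (2.22 to 2.26 FPKM) lies below its control libraries (4.36 to 5.30 FPKM).

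*Oas1a* encodes a synthetase of the OAS1 group. Its FPKM was 87.1, 83.7 and 83.7 in the 3 control libraries, 143, 131 and 141 in LPS, and 156, 161 and 153 in PIC. TBHQ libraries held 67.5, 71.1 and 73.8, LPS + TBHQ libraries 93.0, 94.3 and 96.7, and PIC + TBHQ libraries 120, 121 and 124. In deposited FPKM the order from low to high was TBHQ, control, LPS + TBHQ, PIC + TBHQ, LPS and PIC, and no 2 neighbours in it overlapped. *Oas1a* rose 1.62-fold with LPS (log2FC 0.70 ± 0.041, SE, FDR 3.7e-17) and 1.83-fold with PIC (log2FC 0.87 ± 0.031, FDR 2.5e-20). It fell with TBHQ before stimulation, by 0.55 ± 0.040 log2 against LPS alone (FDR 1.1e-13) and by 0.35 ± 0.029 against PIC alone (FDR 3.4e-09). It was also lower with TBHQ alone than in control (log2FC -0.26 ± 0.041, FDR 3.6e-06). Its counts in LPS + TBHQ stayed slightly above control (log2FC 0.15 ± 0.026, FDR 0.00224), a call that was lost when libraries were scaled by their totals only (FDR 0.0651).

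*Oas1g* encodes another OAS1 synthetase and lies next to *Oas1a*. Its FPKM was 44.4, 42.0 and 38.6 in control, 84.9, 86.6 and 88.3 in LPS, and 82.1, 77.9 and 84.0 in PIC. TBHQ libraries held 34.8, 32.7 and 34.6, LPS + TBHQ libraries 57.4, 57.3 and 54.7, and PIC + TBHQ libraries 68.7, 72.4 and 61.1. It was the only one of the 6 genes with a higher mean FPKM in LPS than in PIC, and in FPKM the 3 LPS libraries lay above the 3 PIC libraries. The difference between PIC and LPS did not pass the test (log2FC -0.10 ± 0.036, FDR 0.133), although it did when libraries were scaled by their totals only (log2FC -0.23, FDR 0.00031). *Oas1g* rose 2.07-fold with LPS (log2FC 1.05 ± 0.062, FDR 4.1e-19) and 1.93-fold with PIC (log2FC 0.95 ± 0.068, FDR 3.7e-18). It was lower with TBHQ before LPS than with LPS alone (log2FC -0.62 ± 0.028, FDR 2.2e-12). With TBHQ before PIC it was also lower than with PIC alone (log2FC -0.26 ± 0.077, FDR 6.7e-05). These decreases differed from each other by 0.36 ± 0.082 log2 (FDR 0.00219 in the test of the difference, 0.0537 with limma on log2(FPKM + 0.1)). *Oas1a* and *Oas1g* are near copies. In GENCODE transcripts, 57.6% of the 50-base words of *Oas1a* and 45.7% of those of *Oas1g* occurred in another gene, in nearly every case the other of this pair (1057 words). How reads that match both were counted is not given in the sources used here, so the split between these 2 genes is uncertain.

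*Oas2* encodes a larger synthetase of the family. Its FPKM was 33.8, 29.1 and 33.1 in control, 37.8, 37.0 and 35.9 in LPS, and 45.1, 45.3 and 39.7 in PIC. TBHQ libraries held 28.7, 28.7 and 28.3, LPS + TBHQ libraries 26.5, 24.6 and 23.5, and PIC + TBHQ libraries 31.6, 33.2 and 29.2. The LPS + TBHQ libraries were the lowest of all 18, and the PIC + TBHQ libraries overlapped control. Of the 6 genes *Oas2* rose least with LPS (1.15-fold, log2FC 0.20 ± 0.071, FDR 0.00231), a call that was lost with scaling by library totals (log2FC 0.11, FDR 0.0858). It rose 1.34-fold with PIC (log2FC 0.42 ± 0.093, FDR 1.7e-08). With TBHQ before LPS it fell below control (log2FC -0.37 ± 0.084, FDR 5.4e-07). The log2FC of PIC + TBHQ against control was -0.04 ± 0.085 (FDR 0.605), within the spread of the libraries, and -0.18 with scaling by library totals (FDR 0.00387). TBHQ alone gave -0.17 ± 0.068 (FDR 0.0176), and this call was lost without control replicate 1 (log2FC -0.13, FDR 0.123), without control replicate 3 (-0.14, FDR 0.0915), without TBHQ replicate 3 (-0.16, FDR 0.0600) and with limma on log2(FPKM + 1) (-0.16, FDR 0.0774) or log2(FPKM + 0.1) (-0.16, FDR 0.0757). None of its 4441 50-base words occurred in another gene, but *Gm43068*, listed within it on the opposite strand, had a mean of 34.2 counts against 2271 for *Oas2*.

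*Oas3* encodes the largest synthetase of the family, with a listed transcript length of 7069 bases. Its FPKM was 49.7, 49.9 and 48.7 in control, 67.5, 63.6 and 67.9 in LPS, and 66.5, 69.2 and 71.5 in PIC. TBHQ libraries held 36.7, 38.8 and 39.8, LPS + TBHQ libraries 53.4, 52.5 and 53.0, and PIC + TBHQ libraries 63.4, 61.4 and 62.6. LPS and PIC libraries overlapped, and all other neighbours in the order of conditions were apart. *Oas3* rose 1.33-fold with LPS (log2FC 0.42 ± 0.031, FDR 2e-12) and 1.38-fold with PIC (log2FC 0.47 ± 0.031, FDR 5.7e-14). PIC against LPS gave a log2FC of 0.05 ± 0.041 (FDR 0.329), and of -0.08 with scaling by library totals (FDR 0.0558). *Oas3* was lower with TBHQ alone than in control (log2FC -0.37 ± 0.036, FDR 3.3e-10). It was also lower with TBHQ before LPS than with LPS alone (log2FC -0.33 ± 0.030, FDR 2.7e-09). TBHQ before PIC gave a log2FC of -0.13 ± 0.032 (FDR 0.00279), which was not called with scaling by library totals (log2FC -0.07, FDR 0.134). Its level in LPS + TBHQ was 1.06-fold that of control (log2FC 0.09 ± 0.014, FDR 0.0364), a call lost when any of the 6 libraries compared was left out and with scaling by library totals (log2FC 0.03, FDR 0.559).

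*Oasl2* encodes an OAS-like protein that keeps synthetase activity in the mouse. Its FPKM was 5.30, 4.36 and 4.59 in control, 12.7, 11.7 and 11.3 in LPS, and 19.1, 17.9 and 17.5 in PIC. TBHQ libraries held 1.62, 1.71 and 1.70, LPS + TBHQ libraries 2.24, 2.26 and 2.22, and PIC + TBHQ libraries 8.80, 8.26 and 7.98. Every condition stood apart from its neighbours in the order TBHQ, LPS + TBHQ, control, PIC + TBHQ, LPS and PIC. The LPS + TBHQ libraries, at 239, 239 and 248 counts, were thus below control (519, 453 and 494 counts) although LPS alone was above it (1150, 1068 and 1031 counts). *Oasl2* rose 2.49-fold with LPS (log2FC 1.32 ± 0.098, FDR 3.1e-19) and 3.78-fold with PIC (log2FC 1.92 ± 0.094, FDR 8.1e-25). With TBHQ alone it was 2.83-fold lower than in control (log2FC -1.50 ± 0.088, FDR 6e-17), which placed it 87th from the lowest log2FC of 13691 genes tested. With TBHQ before LPS it was 5.32-fold lower than with LPS alone (log2FC -2.41 ± 0.049, FDR 1.8e-24), at position 36 from the lowest. Against control it was 2.13-fold lower (log2FC -1.09 ± 0.085, FDR 1.9e-14). With TBHQ before PIC it was 2.16-fold lower than with PIC alone (log2FC -1.11 ± 0.057, FDR 1.9e-17) and 1.75-fold above control (log2FC 0.81 ± 0.094, FDR 4.1e-13). The decrease was larger before LPS than before PIC, by 1.30 ± 0.075 log2 (FDR 1.1e-11 in the test of the difference).

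*Oasl1* encodes an OAS-like protein without synthetase activity, known in the mouse as a translational inhibitor of *Irf7* mRNA. Its FPKM was 67.5, 59.9 and 63.6 in control, 190, 168 and 184 in LPS, and 770, 814 and 755 in PIC. TBHQ libraries held 54.3, 54.6 and 60.4, LPS + TBHQ libraries 94.8, 94.0 and 98.0, and PIC + TBHQ libraries 462, 451 and 438. TBHQ overlapped control, and every other condition stood apart, with both PIC conditions above all others. *Oasl1* rose 12.1-fold with PIC (log2FC 3.60 ± 0.060, FDR 1.2e-36) and 2.83-fold with LPS (log2FC 1.50 ± 0.072, FDR 2.5e-25). In mean FPKM it was at position 59 of all genes in PIC and at 768 in control. It was 4.28-fold higher in PIC than in LPS (log2FC 2.10 ± 0.061, FDR 7.3e-29), position 39 of 13691 genes from the highest log2FC. With TBHQ before LPS its log2FC against LPS alone was -0.92 ± 0.055 (FDR 1e-18), and with TBHQ before PIC -0.78 ± 0.040 against PIC alone (FDR 3.2e-17). These decreases were not told apart by the test of their difference (0.14 ± 0.067 log2, FDR 0.244). After TBHQ and PIC it was 7.05-fold above control (log2FC 2.82 ± 0.055, FDR 1.2e-33), and after TBHQ and LPS 1.49-fold (log2FC 0.58 ± 0.054, FDR 3.2e-13). TBHQ alone gave a log2FC of -0.18 ± 0.070 (FDR 0.00332). *Gm13822*, a long noncoding RNA on the opposite strand, overlaps the listed start of *Oasl1* by position (115055374 to 115061336). It had a mean of 65.9 counts against 10678 for *Oasl1*. The counting is not stated to use strand, and without it reads from *Gm13822* and *Oasl1* in the overlap, or from *Gm43068* and *Oas2*, cannot be told apart.

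**Figure D3:**
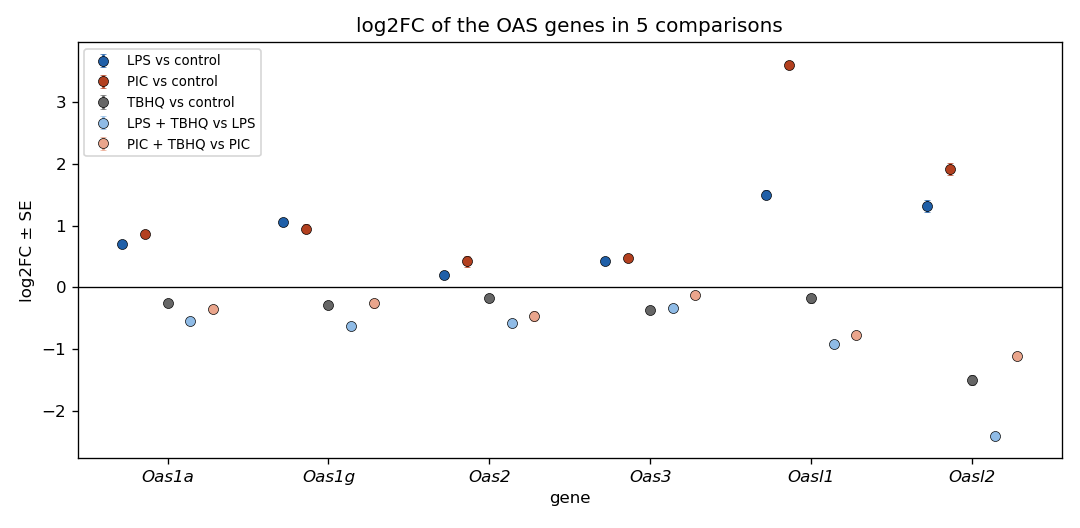
log2FC of each OAS gene in 5 comparisons, as points with SE from the spread of 3 libraries per condition (most error bars are smaller than the points). LPS and PIC lie above 0 for all 6 genes, from 0.20 to 3.60, and the comparisons with TBHQ lie below 0, from -2.41 to -0.13. LPS vs control, PIC vs control and TBHQ vs control share their control libraries. LPS vs control and LPS + TBHQ vs LPS share their LPS libraries with opposite sign, and the PIC comparisons share their PIC libraries likewise.

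The comparisons of LPS and of PIC with control ask how each stimulant changed these genes after 12 h. All 6 genes passed the filter on low counts. With LPS, 6 of 6 were called higher at an FDR below 0.05 (24.0% of the 13691 genes tested were higher and 24.1% lower), with a median log2FC of 0.87 beside 0.00 over all genes tested. With PIC, 6 of 6 were called higher (28.6% of genes tested higher, 30.1% lower), with a median log2FC of 0.91 beside -0.01. In both, the 3 stimulated libraries lay above the 3 control libraries for each of the 6 genes. In these bulk libraries, fewer cells of a type and less RNA per cell cannot be told apart. With PIC against LPS, 4 of 6 were higher and none lower (14.9% of genes tested higher, 12.8% lower). *Oas1g* and *Oas3* were the 2 that did not pass. With scaling by library totals, which shifted the median log2FC of all genes by -0.129 in this comparison, *Oas1a* and *Oas2* were not called higher, *Oas1g* was lower and the log2FC of *Oas3* was negative, while *Oasl1* and *Oasl2* stayed higher.

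The comparison of TBHQ with control sets cells at the end of the TBHQ exposure against untreated cells. All 6 genes were called lower with TBHQ (14.8% of genes tested lower, 14.2% higher), with a median log2FC of -0.28 beside 0.00. The decrease of *Oasl2* (log2FC -1.50) was far from that of the other 5, which lay between -0.37 and -0.17. Among the 23 other interferon-stimulated genes described below, 21 were lower and none higher in this comparison. Their median log2FC was -0.76, and the lowest was that of *Ifi44l* (-1.30).

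The comparisons of the stimulants with and without TBHQ set stimulated cells that first received TBHQ against cells that did not. The study's text does not say whether cells given a stimulant alone had the same 4 h before it. TBHQ, its solvent and any difference in time in culture therefore cannot be told apart here. With LPS + TBHQ against LPS, 6 of 6 genes were lower (12.2% of genes tested lower, 11.7% higher), with a median log2FC of -0.59 beside 0.00. With PIC + TBHQ against PIC, 6 of 6 were lower (15.5% of genes tested lower, 15.8% higher), with a median of -0.40 beside 0.01. In both, the 3 libraries with TBHQ lay below the 3 without it for each of the 6 genes. Set against control, LPS + TBHQ left 4 of 6 genes higher and 2 lower (21.2% of genes tested higher, 22.5% lower), the lower ones being *Oas2* and *Oasl2*. With scaling by library totals 2 of 6 were higher and 2 lower, *Oas1a* (log2FC 0.09, FDR 0.0651) and *Oas3* not passing. PIC + TBHQ left 5 of 6 higher and none lower (26.4% of genes tested higher, 26.0% lower). These comparisons share their control libraries with those of the stimulants alone. LPS against control and LPS + TBHQ against LPS share the LPS libraries with opposite sign, and likewise for PIC. An error in the libraries of a stimulant alone would thus enter its rise and the later fall together.

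With TBHQ present, all 6 genes were higher in PIC than in LPS (11.9% of genes tested higher, 8.39% lower). *Oasl1* was 4.72-fold higher (log2FC 2.24 ± 0.029, FDR 1.5e-29) and *Oasl2* 3.74-fold higher (log2FC 1.90 ± 0.042, FDR 3.7e-21). The other 4 genes had log2FC between 0.24 and 0.37. In the test of whether the TBHQ effect differed between the stimulants, 3 of 6 genes passed, each with a smaller decrease before PIC (0.825% of genes tested passed in this direction and 1.01% in the other). They were *Oasl2* (1.30), *Oas1g* (0.36 ± 0.082, FDR 0.00219) and *Oas3* (0.19 ± 0.044, FDR 0.0308). The difference for *Oas1a* was also 0.19 log2 (SE 0.049, FDR 0.0608), and that for *Oas2* was 0.12 ± 0.098 (FDR 0.535). *Oas1g* was not called with limma on log2(FPKM + 0.1) (FDR 0.0537). The calls for *Oas3* and *Oas1a* depend on the setting, with *Oas3* lost under RLE factors, compared groups only and both limma fits and without any of 9 of the 12 libraries (all but LPS replicate 2, PIC replicate 3 and PIC + TBHQ replicate 2), at log2 differences of 0.15 to 0.20, and *Oas1a* gained with DESeq2 (FDR 0.0314), library totals (FDR 0.00913) and without LPS replicate 2 (FDR 0.0267).

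Also examined were the other *Oas1* genes, *Abce1*, and *Pde12*, whose product degrades oligoadenylates. *Oas1b*, known as the flavivirus resistance gene of the mouse, had 215, 238 and 219 counts in control, 412, 401 and 349 with LPS, and 440, 442 and 549 with PIC. *Oas1b* rose with LPS (log2FC 0.96 ± 0.090, FDR 2e-11) and PIC (log2FC 1.20 ± 0.051, FDR 2.2e-14) and fell with TBHQ before LPS (log2FC -1.04 ± 0.13, FDR 1.2e-11) and before PIC (log2FC -0.67 ± 0.037, FDR 5.8e-08). *Oas1h*, at 24 to 70 counts, rose with LPS (log2FC 0.77 ± 0.33, FDR 0.0156, libraries overlapping) and PIC (log2FC 1.09 ± 0.33, FDR 0.00039). *Oas1c*, at 64 to 140 counts, was called with neither stimulant (log2FC 0.18 and 0.03) and was lower with TBHQ alone (log2FC -0.68 ± 0.12, FDR 0.00108) and with TBHQ before LPS (log2FC -0.44 ± 0.15, FDR 0.0332). *Oas1d*, *Oas1e* and *Oas1f* were not tested, with at most 5, 1 and 1 counts in any library. *Abce1* moved little (log2FC -0.16 with LPS, -0.08 with PIC and 0.13 with TBHQ), and *Pde12* gave -0.24 with LPS, -0.11 with PIC and 0.22 with TBHQ, of which the PIC values did not pass.

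Among 12 genes for sensing of nucleic acids and their adaptors, 8 were higher and 1 lower with LPS (24.0% of genes tested higher, 24.1% lower), and 9 higher and 2 lower with PIC (28.6% higher, 30.1% lower). For *Ifih1* and *Ddx58* (also *Rigi*), cytosolic sensors of double-stranded RNA, log2FC with PIC was 1.76 and 0.80, and with TBHQ before PIC -0.78 and -0.28. *Eif2ak2*, which encodes the RNA-activated kinase PKR, rose with PIC (log2FC 0.30) and fell with TBHQ before it (-0.42), and *Tlr3*, the endosomal sensor of double-stranded RNA, gave 0.41 and -0.66. *Zbp1* had the highest log2FC of the list with PIC (2.97) and *Cgas* the lowest (-0.77). With TBHQ before PIC, 2 of the 12 were higher, 8 lower and 2 not called, *Mavs* being highest (0.22) and *Zbp1* lowest (-0.98). Among 15 genes of the type I interferon signal, 13 were tested, of which 9 were higher and 2 lower with PIC, and 1 higher and 7 lower with TBHQ before PIC (15.8% of genes tested higher, 15.5% lower). *Irf7* was highest with PIC (log2FC 1.73) and lowest with TBHQ before PIC (-0.75), and *Irf2* was lowest with PIC (-0.58). *Stat2* and *Irf9*, which act in the response to type I interferon, gave 0.87 and 0.49 with PIC and -0.52 and -0.22 with TBHQ before it. *Usp18*, an inhibitor of this signal, gave 0.68 and -0.38. *Ifnb1*, which encodes interferon beta, was not tested, with 12, 4 and 6 counts in PIC and at most 3 in any library of the other conditions.

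Among 23 other interferon-stimulated genes, 21 were higher with LPS (24.0% of genes tested) and 22 with PIC (28.6%). With TBHQ before LPS 23 of 23 were lower (12.2% of genes tested), as with TBHQ before PIC (15.5%). Their median log2FC was 0.77 with LPS beside 0.87 for the 6 OAS genes, 1.40 with PIC beside 0.91, -1.19 with TBHQ before LPS beside -0.59, and -0.75 with TBHQ before PIC beside -0.40. The medians over all genes tested lay between -0.01 and 0.01 in these comparisons. *Rsad2*, *Isg15* and *Ifit1* gave log2FC of 3.85, 2.38 and 2.42 with PIC and of -1.64, -0.73 and -1.24 with TBHQ before PIC, *Rsad2* being the highest of the list with PIC and *Ifi27l2a* (-0.34) the lowest. *Mx1* had 56, 59 and 61 counts in PIC, 18, 12 and 15 in PIC + TBHQ, and 3, 1 and 1 in LPS + TBHQ. With PIC against LPS, 20 of the 23 were higher (14.9% of genes tested higher, 12.8% lower), *Rsad2* having the highest log2FC of the list (1.91).

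By the smallest root mean square (RMS) difference in centred log2 CPM (counts scaled to library size) over the 6 condition means, among 10445 genes compared, *Oas3* was most like *Khnyn* (0.019 log2). *Oas1a* was most like *Npc2* (0.046), *Kdm4b* (0.054) and *Csf2rb* (0.065), and *Oas2* like *Csf2rb2* (0.043), *Dab2* (0.059) and *Eif2ak2* (0.073). *Oas3* was followed by *Chmp4b* (0.048) and *Rasgrp4* (0.049), and *Oas1g* was most like *Arid5a* (0.082), *Blnk* (0.092) and *Igf2bp2* (0.094). *Oasl2* was most like *Ifit3b* (0.26), *Ifi209* (0.26) and *Ifi204* (0.30), and *Oasl1* like *A530040E14Rik* (0.33), *Clec4e* (0.41) and *Traf1* (0.41). The larger differences go with larger ranges, since the condition means of *Oasl1* spanned 3.77 log2 and those of *Oasl2* 3.41, against 0.79 for *Oas2*. Within the family, the nearest member to *Oas1g* and to *Oas3* was *Oas1a* (0.14 for both), and *Oasl1* and *Oasl2* were nearest to each other but 0.77 apart.

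RefSeq promoters (GRCm38.p6, 250 bases before to 50 after the start) were matched for 5 of the 6 genes. The core of the interferon-stimulated response element, GAAANNGAAA, was searched on both strands, and occurred in 3 of the 5 and in 8 of 18 other interferon-stimulated genes matched, against 3.44% of 32851 promoters. Of these 3, *Oas1a* and *Oas1g* are closely alike over the 100 bases before the start. *Oas1a* and *Oas1g* each held overlapping matches close to the start, from 20 to 5 and from 18 to 3 bases before it, and *Oas3* held a match from 75 to 66 bases before it. The promoter of *Oas1c*, which is not among the 6 and was called with neither stimulant, also held 2 overlapping matches, on the other strand from 114 to 99 bases before the start. A gamma-activated site, TTCNNNGAA, occurred in *Oas1a* from 98 to 90 bases before the start, and in 8.3% of all promoters. *Oasl1* and *Oasl2*, the genes with the largest differences between conditions, held neither set of letters in this window, which says only that these letters are not in it. With 1 mismatch allowed in a repeat, 5 of 5 matched, against 35.4% of all promoters. The counts of genes take a match in any promoter of a gene, whereas the percentages are per promoter, with 32851 promoters for 27025 genes. The 100 bases before the start are shown because the 6 genes rose together with both stimulants, with the matches to GAAANNGAAA in capitals.
Oas1a, chr5:120907526-120907625, minus strand: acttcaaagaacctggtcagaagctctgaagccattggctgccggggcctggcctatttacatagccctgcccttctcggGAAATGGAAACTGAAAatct
Oas1g, chr5:120887614-120887713, minus strand: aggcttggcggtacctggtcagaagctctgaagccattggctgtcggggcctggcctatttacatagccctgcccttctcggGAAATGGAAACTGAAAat
Oas3, chr5:120777660-120777759, minus strand: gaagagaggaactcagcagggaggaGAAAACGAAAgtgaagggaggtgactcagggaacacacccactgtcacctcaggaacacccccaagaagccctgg
Oasl1, chr5:114923140-114923239, plus strand: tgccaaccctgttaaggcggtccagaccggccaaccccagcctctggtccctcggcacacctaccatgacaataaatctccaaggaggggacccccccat
Oasl2, chr5:114896834-114896933, plus strand: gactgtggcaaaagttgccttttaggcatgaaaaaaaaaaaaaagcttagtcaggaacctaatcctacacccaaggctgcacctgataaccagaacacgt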

How the data were processed

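Libraries of poly(A) RNA were strand-specific per the study's methods, whereas the labels name directional and non-directional libraries. The submitters' processing notes list HISAT2 2.0.5, StringTie 1.3.3b and featureCounts 1.5.0-p3. Values are the raw counts per gene deposited by the authors, and their deposited FPKM. In each library the FPKM was a constant 0.943 to 1.12 times FPKM recomputed from the library total and the deposited gene length (an other value, in bases). The constant was 0.943 to 0.951 in control, 0.945 to 0.954 in TBHQ, 1.00 to 1.01 in LPS and 0.992 to 0.999 in LPS + TBHQ. It was 1.11 to 1.12 in PIC and 1.05 to 1.06 in PIC + TBHQ. Comparisons of conditions in deposited FPKM, and the limma fits, hold this scaling. Replicates 1 to 3 are biological replicates per the study's methods. All 18 libraries, with 14423390 to 18851626 counts, entered a single edgeR 4.0.16 quasi-likelihood fit (R 4.3.3) with 1 coefficient per condition, TMM scaling, filterByExpr (13691 genes tested) and 12 residual degrees of freedom. FDR is Benjamini-Hochberg over all genes tested, called below 0.05. SE of log2FC came from the replicate spread of log2 CPM (prior count 2). The edgeR step was tested on simulated data. Alternatives were RLE factors, library totals, DESeq2 1.42.0, limma 3.58.1 on log2(FPKM + 1) and log2(FPKM + 0.1), compared groups only, other filters, a replicate block, the study's threshold and leaving out each library. Members and gene lists were chosen with earlier results of these data known. Named singly were the 6 members, the other OAS genes, *Abce1*, *Pde12*, interferon and sensing genes, each list's highest and lowest log2FC, and the 3 genes nearest each member. Some genes of these lists are not reported here. Promoters came from a RefSeq table, and words of 50 bases from GENCODE vM21 transcripts.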

Additional observations from a re-analysis of the deposited data

Results flagged for a closer look

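*Oasl2* differed between the stimulants in its change with TBHQ before them, by 1.30 on the log2 scale, with the smaller decrease before PIC (edgeR, Benjamini-Hochberg FDR 1.1e-11 in the test of the difference). Of 23 other interferon-stimulated genes, 14 passed the same test, each in this direction (0.825% of the 13691 genes tested passed in this direction and 1.01% in the other). *Oas1g* also passed (0.36, FDR 0.00219), but not with limma on log2(FPKM + 0.1) (FDR 0.0537), and the call of *Oas3* (0.19, FDR 0.0308) was lost with RLE factors, compared groups only, both limma fits and without any of 9 of the 12 libraries (all but LPS replicate 2, PIC replicate 3 and PIC + TBHQ replicate 2), at 0.15 to 0.20. The PIC and LPS conditions do not share libraries in this test.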

How the results depend on the processing

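Of 936 log2FC values of the 6 members under other settings, 897 kept their direction and their side of FDR 0.05. Another 31 lost the call, 5 gained it and 3 changed sign. The sign changes, between values that were not called, were *Oas3* in PIC against LPS with library totals (-0.08, from 0.05) and *Oas2* in PIC + TBHQ against control without PIC + TBHQ replicate 3 (0.01) or control replicate 1 (0.0047), from -0.04. Leaving out a library gave -0.10 to 0.01 for the latter. With library totals 50 of 60 log2FC kept their call, and the median of all genes shifted by -0.217 in PIC against control, -0.148 in PIC + TBHQ against control and -0.129 in PIC against LPS.

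At an FDR below 0.01 and |log2FC| above 2, genes called were 224 (LPS), 489 (PIC), 26 (TBHQ), 132 (LPS + TBHQ) and 295 (PIC + TBHQ) against control, 53 in LPS + TBHQ against LPS, 41 in PIC + TBHQ against PIC, 42 in PIC against LPS, 34 in PIC + TBHQ against LPS + TBHQ and 0 for the difference in TBHQ effect. This threshold called 1 member in PIC and in PIC + TBHQ against control, in LPS + TBHQ against LPS and in both comparisons of PIC with LPS conditions, and 0 in the others. For the difference in TBHQ effect, 251 genes were called, against 147 with limma on log2(FPKM + 0.1) (1 member in place of 3), 380 without a filter on low counts, 160 without LPS + TBHQ replicate 2 and up to 354 without LPS replicate 2. The cause was not tested.

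The split of higher and lower calls moved by more than 10 percentage points with library totals in 9 comparisons. In LPS against control it went from 3283 and 3306 to 2454 and 4558, in PIC against control from 3917 and 4120 to 2379 and 6635, in LPS + TBHQ against control from 2896 and 3087 to 2281 and 4034, and in PIC + TBHQ against control from 3615 and 3563 to 2364 and 5515. In LPS + TBHQ against LPS it went from 1601 and 1673 to 2061 and 1401, in PIC + TBHQ against PIC from 2167 and 2118 to 3398 and 1436, in PIC against LPS from 2035 and 1752 to 985 and 4373, and in PIC + TBHQ against LPS + TBHQ from 1623 and 1149 to 890 and 2582. The difference in TBHQ effect went from 113 and 138 to 235 and 74, and to 104 and 253 with DESeq2.

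Libraries of the same replicate number did not deviate together (r from -0.044 to 0.065 over 45 pairs, with 16 best with their own number). With the replicate block, members called stayed at the same number in all 10 comparisons, and genes called went, for example, from 6589 to 6609 in LPS against control. With FPKM recomputed from counts, 4 of 6 members kept their order of conditions, 23 in place of 27 of 30 neighbouring conditions stood apart, and 17 of 36 means moved by more than 1 SD. The orders and separations of conditions given for single genes are those of the deposited FPKM. With 1 mismatch, 5 members in place of 3 held the ISRE core. With 3 libraries a condition, precision is limited for small differences, such as those near 0.1 log2.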

Other observations

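Of 16 genes within the OAS loci or among the 3 nearest on either side, 6 were tested, and with PIC 1 was higher and 2 lower against control (28.6% of the 13691 genes tested were higher and 30.1% lower). The higher gene was *Gm13822*, the long noncoding RNA opposite the start of *Oasl1*, with a log2FC of 1.95 ± 0.39 (edgeR, Benjamini-Hochberg FDR 2.2e-09) beside 3.60 for *Oasl1*. With TBHQ before LPS *Gm13822* gave -1.06 ± 0.18 (FDR 0.00180) and with TBHQ before PIC -0.58 ± 0.28 (FDR 0.0223). *Gm13822* had a mean of only 65.9 counts, and without strand its reads in the overlap cannot be told apart from those of *Oasl1*. *Rasal1*, which *Dtx1* (log2FC 0.42 with PIC, FDR 0.555) separates from the *Oas1*, *Oas2* and *Oas3* cluster, was the lowest of the neighbours with PIC (log2FC -1.19 ± 0.10, FDR 5.1e-10) and rose with TBHQ before PIC (log2FC 0.80 ± 0.14, FDR 1.1e-05), opposite in sign to *Oas1a*, *Oas1g*, *Oas2* and *Oas3* in both comparisons. With TBHQ alone *Rasal1* was lower (log2FC -0.35 ± 0.097, FDR 0.0211), as were these 4 genes. *2210016L21Rik*, next to *Oasl1*, gave -0.20 ± 0.026 with PIC (FDR 0.00948) and 0.27 ± 0.067 with TBHQ before PIC (FDR 0.00154).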
